A study of Mus musculus with 7 samples.

Results

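Long intergenic noncoding RNAs (lincRNAs) are transcripts that lie between protein-coding genes and do not encode a protein. Many are spliced and polyadenylated like messenger RNAs, are made at low levels, and are found in fewer cell types than coding transcripts are. Some lie beside genes of developmental transcription factors, and a few are known to act on chromatin or on the transcription of a neighbour, while the function of most is not known.

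The array used here carried 16251 probes for lincRNA regions among 59305 spots that were not controls. A lincRNA probe was taken as detected on an array where the scanner software called its spot well above background. The 3106 probes described here were detected on 1 to 3 of the 7 arrays: 1298 on 1 array, 984 on 2 and 824 on 3. They made up 19.1% of the lincRNA probes. Another 133 probes with 1 to 3 detections lay on chromosome X and were left out, and 17 of the 3106 had no position in the array files. The probes came from 2036 regions counted with their strand, which merged into 1299 loci of the 2231 on the array. The probes were chosen by these detection calls, so how often and on which array a probe was detected is a description and carries no test.

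Each array held RNA of 1 sorted population from C57BL6J mouse embryos that all carried an Osr1-GFP knock-in. Green fluorescent protein (GFP) from the Osr1 gene, which encodes a transcription factor of the intermediate and lateral plate mesoderm, marked the cells to be sorted. At E8.5 (embryonic day 8.5) GFP-positive and GFP-negative cells were taken from the embryo. At E9.5 the caudal embryo was sorted. The gated ones were GFP-positive with the integrin Itga8 on their surface and without the receptor Pdgfra, the ungated ones (other GFP-positive in the plots) were all remaining GFP-positive cells, and GFP-negative cells were kept as well. At E11.5 the metanephric mesenchyme, from which nephrons and renal stroma arise, gave gated and ungated cells by the same rule. The gate was meant to enrich nephron progenitors, and the ungated cells to stand for the surrounding mesenchyme. With 1 array per population there was no replicate and no test between populations, and the labels do not say how many embryos were pooled. Fewer cells of a type and less RNA per cell cannot be told apart in such bulk samples.

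A level is given throughout on the log2 scale, as the spot's processed signal relative to the 75th percentile of its array, so that 0 is the level at that percentile. Osr1 stood at 0.85 in E8.5 GFP-positive cells, at 1.03 and -0.08 in gated and ungated E9.5 cells and at 1.63 and -1.80 in gated and ungated E11.5 cells, and was not well above background in either GFP-negative population. Itga8 was at 2.15 against 0.20 in gated against ungated E9.5 cells and at 2.82 against -1.31 at E11.5, and Pdgfra at -0.62 against 3.32 and at -3.64 against 4.02. The 6 erythroid markers measured had a median level of 7.40 and 5.82 in GFP-negative cells at E8.5 and at E9.5, and of -1.27 or lower elsewhere. The 5 neural markers had a median of 0.90 in E9.5 GFP-negative cells and of -1.96 or lower elsewhere. The share of all spots well above background was 84.1% on the array of ungated E9.5 cells, 56.2% on that of the E8.5 GFP-negative cells and 70.3% to 74.0% on the other 5. The gated and GFP-negative E9.5 cells were hybridised on a second slide and the remaining 5 populations on the first.

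Each lincRNA probe is a 60-base oligonucleotide spotted once per array. The sequences below belong to the probes on which the results turn. They are those of the array files, written 5′ to 3′ in lower case. Capitals would mark CG dinucleotides, and none of the probes shown holds one. The first probe lies near Six2, the next pair are reverse complements of each other near Pou3f3, and the one after them lies near Foxf1. The probes after those belong to a region of chromosome 1 detected in ungated E11.5 cells and to a region of chromosome 12 detected in GFP-negative cells. The last 2 stood far above their other arrays while most probes of their locus did not.
A_30_P01025789, chr17:86093064-86093123, forward: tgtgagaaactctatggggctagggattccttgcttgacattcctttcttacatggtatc
A_30_P01032893, chr1:42759215-42759274, forward: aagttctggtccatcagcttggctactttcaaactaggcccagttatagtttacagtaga
A_30_P01026335, chr1:42759215-42759274, reverse: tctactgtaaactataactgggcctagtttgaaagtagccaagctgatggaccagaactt
A_30_P01026268, chr8:123591276-123591335, forward: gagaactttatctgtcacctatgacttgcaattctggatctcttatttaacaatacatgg
A_30_P01021141, chr1:141827358-141827417, forward: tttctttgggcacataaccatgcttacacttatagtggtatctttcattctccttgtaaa
A_30_P01032506, chr12:32781502-32781561, reverse: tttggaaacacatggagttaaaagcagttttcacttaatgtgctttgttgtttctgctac
A_30_P01028809, chr2:167399598-167399657, reverse: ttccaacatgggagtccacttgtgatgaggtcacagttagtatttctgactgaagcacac
A_30_P01025001, chr13:99466475-99466534, reverse: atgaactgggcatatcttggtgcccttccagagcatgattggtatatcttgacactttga
All coordinates are those of the array's annotation, on the mm9 (NCBI37) build. The array files describe each of these positions as a lincRNA region and give no exons or introns for it.

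By each array's own detection calls, ungated E9.5 cells held more of the 3106 probes than any other population. That array detected 2217 of them (71.4%), and 795 of the 1298 probes detected on a single array were detected there. The counts on the remaining arrays were 419 for E8.5 GFP-positive, 95 for E8.5 GFP-negative, 637 for E9.5 gated, 734 for E9.5 GFP-negative, 787 for E11.5 gated and 849 for ungated E11.5 cells. The order was that of the lincRNA probes each array called in all, except that GFP-negative E9.5 and gated E11.5 cells changed places: 82.6% on the array of ungated E9.5 cells, 48.1% on that of E8.5 GFP-negative cells, and 65.9% to 71.9% elsewhere. Over all non-control spots, 17.5% were detected on 1 to 3 arrays. With chromosome X kept, the share was 19.9% of lincRNA probes against 16.5% of the other spots.

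**Figure D1:**
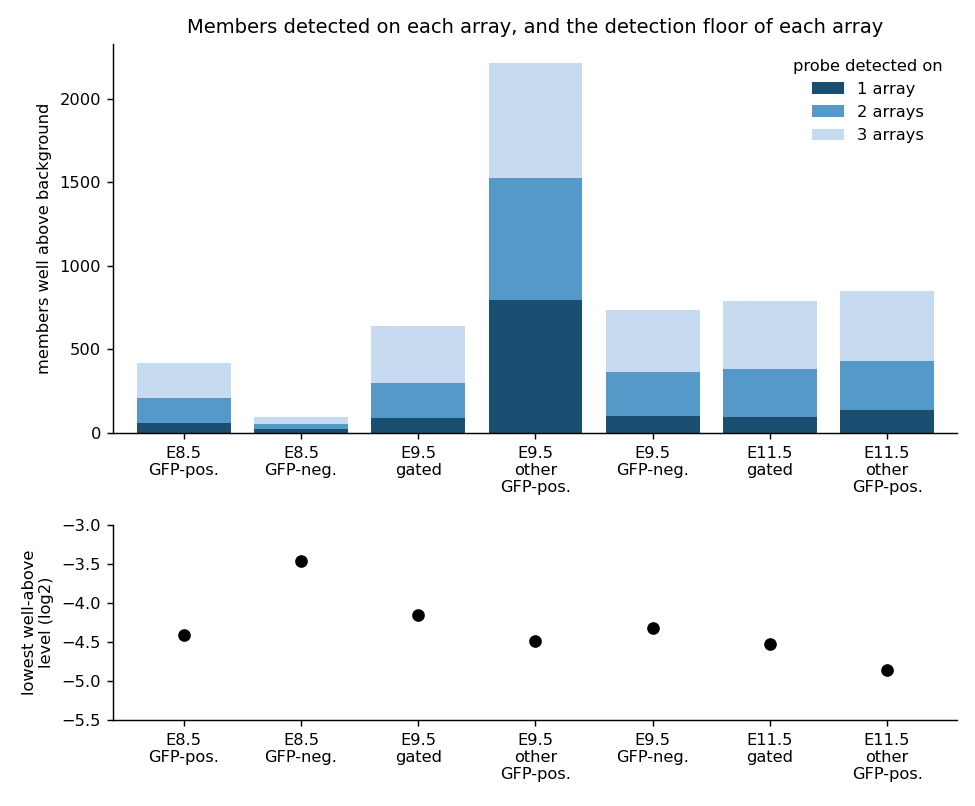
Upper plot: number of the 3106 probes well above background on each array (vertical axis), stacked by whether the probe was detected on 1, 2 or 3 arrays. Lower plot: the lowest level at which any spot of the array was called well above background, on the log2 scale. The array of ungated E9.5 cells held 2217 of the probes and that of E8.5 GFP-negative cells 95, with the highest floor, -3.46.

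The arrays had different detection floors. The lowest level called well above background was -4.41 and -3.46 in E8.5 GFP-positive and E8.5 GFP-negative cells, -4.14, -4.49 and -4.32 in gated, ungated and GFP-negative E9.5 cells, and -4.53 and -4.85 in gated and ungated E11.5 cells. With 1 floor of -3.46 for all arrays, 3156 lincRNA probes were on 1 to 3 arrays, but only 1311 of them were among the 3106. Of the 3106 themselves, 623 were then detected in ungated E9.5 cells, 262 in gated and 262 in GFP-negative E9.5 cells, 147 and 213 in gated and ungated E11.5 cells, and 105 and 95 in E8.5 GFP-positive and E8.5 GFP-negative cells. The part that these floors play in the counts per array was not tested.

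Levels of the probes were low. The highest level of a probe on a detecting array had a median of -3.59 over the 3106, and it was above -2 for 156 probes and above 0 for 22. Just outside the rule, 1748 probes detected on no array had a median highest level of -4.82, against -3.82 for those detected on 1 array. At the other edge, the median highest level was -3.25 for probes on 3 arrays and -3.01 for 806 probes on 4 arrays. The noise of a spot was read from 399 other probes that were spotted 10 times on each array. Their standard deviation within an array had a median of 0.14 over all levels, and of 0.51 where the mean lay below -3 and at least 1 spot was called. In 445 of those 606 cases the 10 spots did not all get the same call.

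For each probe, the gap was taken as its lowest level on a detecting array minus its highest level on the others, where a spot below the floor of its array was set to that floor. The gap was 0 or less for 2601 of the 3106 probes (83.7%), above 0 for 505, above 1 for 88 and above 2 for 24. Its median was -0.50. These counts rest on the floors, and above all on that of the E8.5 GFP-negative array: a probe not called there had to exceed -3.46 on every detecting array to have a gap above 0. In settings chosen after seeing the data, 860 of 3085 probes (27.9%) had a gap of 0 or less without that array, and 249 a gap above 1. With each spot at its own level in place of the floor, 460 of the 3106 (14.8%) had a gap of 0 or less. Of the 21 probes detected in E8.5 GFP-negative cells alone, 18 had a gap above 1. A probe detected on that array had to exceed its floor of -3.46, the highest of the 7, so such gaps are larger by construction. Among probes detected on a single array, a gap above 1 was reached by 10 of 134 in ungated E11.5 cells, 12 of 104 in E9.5 GFP-negative cells, 9 of 89 in E9.5 gated cells, 7 of 61 in E8.5 GFP-positive cells, 4 of 94 in E11.5 gated cells and 6 of 795 in ungated E9.5 cells.

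The most frequent combinations of arrays held ungated E9.5 cells. After these cells alone they were ungated E9.5 with gated E11.5 cells (200 probes), ungated cells of both stages (167), and ungated with GFP-negative E9.5 cells (140). No probe of these 3 combinations had a gap above 1. Exactly the gated populations of both stages were detected by 17 probes, of which 1 had a gap above 1, the probe near Six2. In all, 59 combinations occurred. Their shares over all spots are not given, so these counts are descriptions.

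**Figure D2:**
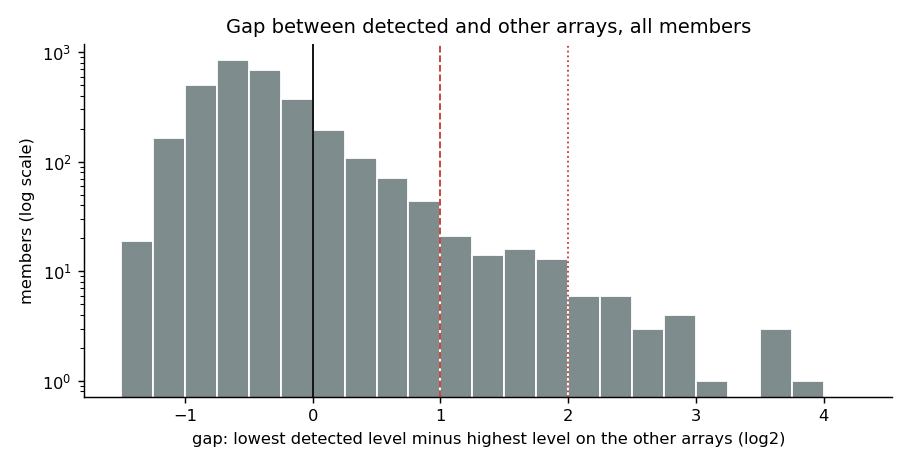
Histogram of the gap (horizontal axis, log2) of the 3106 probes, with the number of probes on a log scale. The solid line marks a gap of 0, and the dashed and dotted lines gaps of 1 and 2, which 88 and 24 probes exceeded.

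The probe near Six2 was detected in the gated populations of both stages and in no other. Six2 is a homeobox transcription factor that keeps nephron progenitors in a self-renewing state. A_30_P01025789 belongs to a region on the forward strand at chr17:86092322-86093123, and its position is 9.02 kb from the nearest Six2 probe. Its level was -5.99 and -5.60 in E8.5 GFP-positive and E8.5 GFP-negative cells, -0.51, -4.39 and -6.50 in gated, ungated and GFP-negative E9.5 cells, and 4.21 and -7.00 in gated and ungated E11.5 cells. The E11.5 gated cells were far the highest. Levels in the other 5 populations all lay below those of the gated ones, which follows from naming the probe by its gap. A gap above 0 was held by 505 of the 3106 probes. The gated cells were at least 14.8-fold higher than the ungated cells at E9.5 and at least 534-fold higher at E11.5, where each fold is a lower bound set against the floor or the level of the dimmer array.

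The nearest Six2 probe gave levels of -6.41, -5.63, -0.18, -4.66, -5.05, 2.58 and -5.89 on the arrays in the same order. It was well above background in the same 2 populations. The second Six2 probe on the array, at 1.16 in E9.5 gated and 4.10 in E11.5 gated cells, was also highest in these. Unlike the nearest one, it was also well above background in E8.5 GFP-positive cells, at -3.97. The same held for ungated and GFP-negative E9.5 cells, at -2.63 and -2.75, and for ungated E11.5 cells, at -3.58. Both other probes of the lincRNA region were highest in E11.5 gated cells, and in E9.5 gated cells both were near their levels elsewhere. One of them was at -0.35 in E11.5 gated cells and between -4.42 and -3.31 on the other arrays. For the other, the level was 4.79 in E11.5 gated cells and between 2.0 and 2.63 elsewhere, so that probes of 1 short region were detected on 2, 6 and 7 arrays. The nephron progenitor markers had a median level of 1.16 and 2.82 in the gated cells of E9.5 and E11.5 and of -0.97 or lower on the other arrays. They include Six2 itself and the sort genes Osr1 and Itga8. The median of 1.16 was the level of Six2 and that of 2.82 the level of Itga8, so these medians are not independent of Six2 or the gate.

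Near Pou3f3, 8 of the 15 lincRNA probes of 1 locus were among the 3106. Pou3f3 is a POU-domain transcription factor with roles in brain and kidney development. The locus spans chr1:42758928-42771337 and has probes on both strands. A_30_P01032893, 3.06 kb from the Pou3f3 probe, had levels of -5.05 and -4.37 at E8.5, -1.52, -4.58 and -0.21 in gated, ungated and GFP-negative E9.5 cells, and -6.78 and -6.56 in gated and ungated E11.5 cells. It was detected in gated and GFP-negative E9.5 cells and in no other population. In 13 of the 15 probes both of these arrays were well above background, and in 14 they held the highest levels.

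Among probes of this locus, A_30_P01029135 had the largest gap, 3.54. Its levels were -5.32, -4.04, 0.08, -4.43, 1.25, -6.39 and -6.75 in the order used above, so that gated and GFP-negative E9.5 cells stood at least 11.6-fold above every other array. This probe and A_30_P01028841, with a gap of 2.18, have no position of their own in the files and belong to a region on the reverse strand at chr1:42759171-42771337. Of the 6 probes on exactly 2 arrays with the largest gaps, 4 lay in this locus. The Pou3f3 probe itself was well above background only in E11.5 gated cells, at -4.05, and at -5.65 and -4.88 in the 2 populations that had the lincRNA signal. The neural markers had a median level of 0.90 in GFP-negative and of -2.80 in gated E9.5 cells, and their part in this signal was not tested. These 2 populations were also the only ones on the second slide, so the slide and the pair of populations cannot be told apart. In all, 59 of the 3106 probes were detected on exactly this pair of arrays, and 6 of them had a gap above 1. Of these 6, 4 came from this locus. The share of all spots with this pattern is not given, so the count is a description.

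The probes A_30_P01032893 and A_30_P01026335 cover the same 60 bases on opposite strands. The reverse probe had levels of -2.56 and -1.27 in gated and GFP-negative E9.5 cells and between -7.10 and -5.70 elsewhere, so both strands were detected on the same arrays. Of the 3106 probes, 47 had such an exact reverse complement on the array. Where the probe was detected, its complement was also detected in 46 of 84 cases (54.8%), and where it was not, in 71 of 245 (29.0%). Of these complements, 24 were among the 3106 themselves and so chosen by the same calls. The cases also mix arrays that called unlike shares of probes, so these shares do not measure agreement between strands. Nothing in the labels says that the labelled cDNA kept the strand of the RNA, and the strand given for a region is that of the array design.

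**Figure D3:**
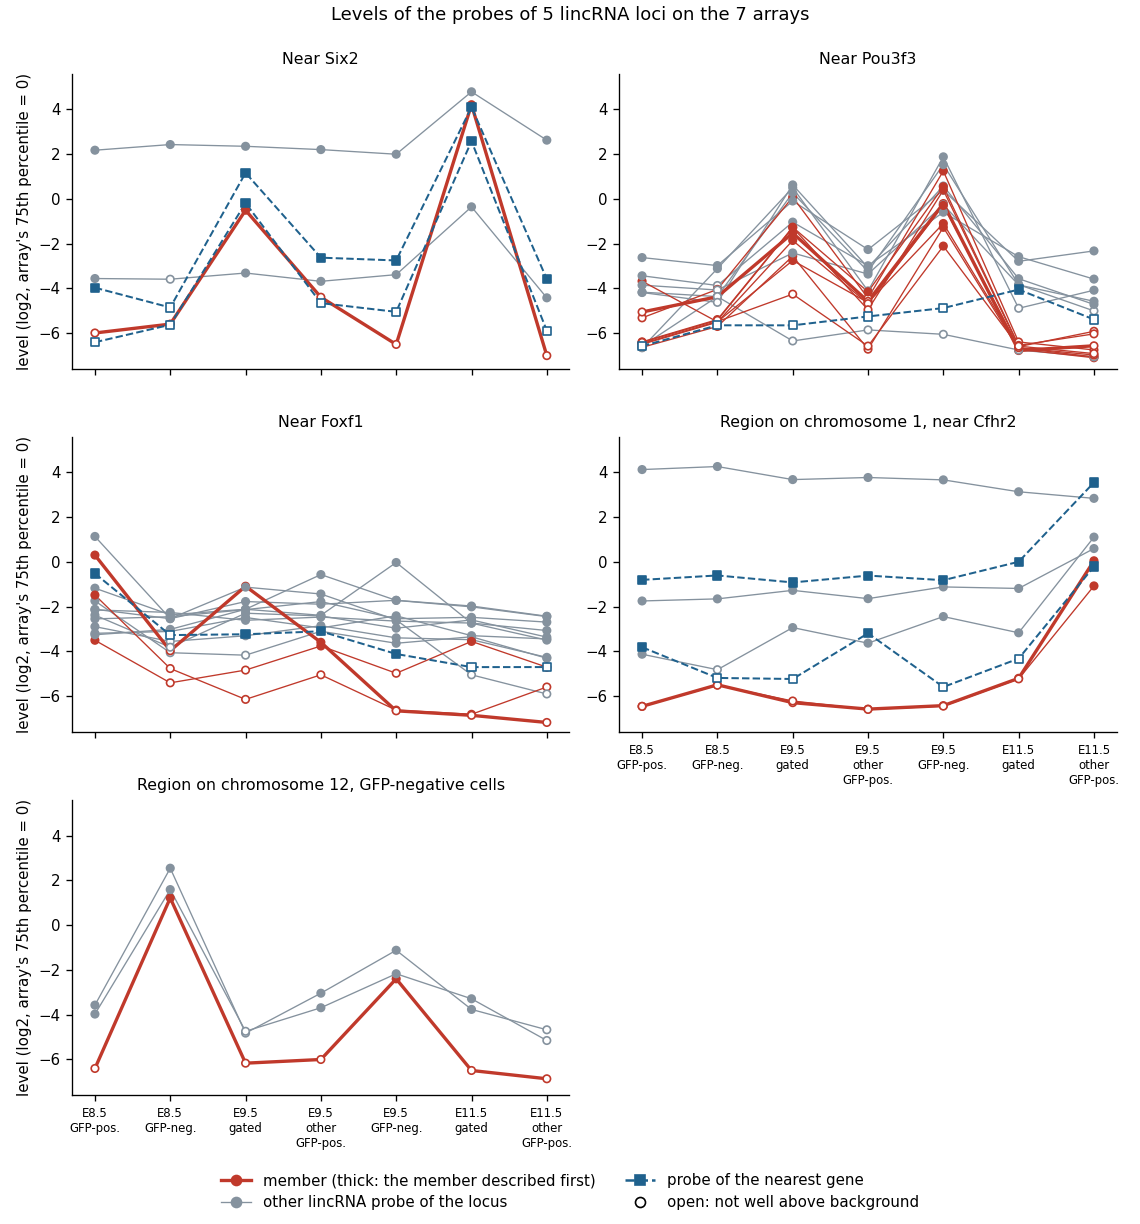
Levels of all lincRNA probes of 5 loci (log2, vertical axis) on the 7 arrays (horizontal axis), with probes among the 3106 in red, other lincRNA probes of the locus in grey and the nearest gene's probes as blue squares. Filled symbols were well above background and open ones were not; the Six2-adjacent probe reached 4.21 in E11.5 gated cells, and 14 of 15 probes of the Pou3f3 locus were highest in gated and GFP-negative E9.5 cells.

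Near Foxf1, a forkhead transcription factor of the lateral plate and visceral mesoderm, a lincRNA probe and the one adjacent to it were highest in E8.5 GFP-positive cells. A_30_P01026268, in a region at chr8:123571640-123607481 and 19.3 kb from the Foxf1 probe, had levels of 0.31 and -3.97 in E8.5 GFP-positive and E8.5 GFP-negative cells. They were -1.08, -3.59 and -6.65 in gated, ungated and GFP-negative E9.5 cells, and -6.85 and -7.17 at E11.5. The probe was detected in E8.5 GFP-positive and in gated and ungated E9.5 cells. Its gap was -0.13, since -3.59 lay below the floor of the E8.5 GFP-negative array. Of its 12 measured locus probes, 1 was more than 1 higher on the detecting arrays, and the median difference was 0.51. The Foxf1 probe was at -0.52 in GFP-positive cells of E8.5 and between -4.70 and -3.10 on the other arrays. Of the 13 lincRNA probes of the locus, the adjacent one had its highest level, 1.14, on the same array, while 6 of the 13 were well above background on all 7 arrays.

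Probes within 10 kb of a gene on the fixed lists were counted as well. There were 13 such probes at 5 genes of the 207 listed. The same count over all lincRNA probes is not given, so nothing is read from this number or from lists with none. Of the 3106, 18.3% lay within 10 kb of any protein-coding gene's probe, against 27.1% of lincRNA probes on all 7 arrays. Among them were 4 at Pou3f3, 3 at Hoxc12, 2 at Sall1 and 1 at Six2. Hoxc12 belongs to the posterior end of the HoxC cluster. Its 3 neighbours in the region chr15:102774492-102778161 were detected at up to -2.35, -3.11 and -3.93, the first and last of these in E9.5 GFP-negative cells and the second in ungated E9.5 cells. The last, A_30_P01024447, had a higher level of -3.05 in E8.5 GFP-negative cells, where its spot was not called well above background. The Hoxc12 probe was highest on the array of E9.5 GFP-negative cells, at -1.78. Sall1 is a zinc finger transcription factor of the metanephric mesenchyme, and the probe near it with the higher levels was detected at -3.32 in E8.5 GFP-positive and -2.78 in E9.5 gated cells. No such probe lay near a gene on the lists for stroma, limb and heart, tail bud, endoderm or blood.

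In ungated E11.5 cells, the largest gap came from a region at chr1:141824450-141835125. A_30_P01021141 was at 0.05 on that array and between -6.58 and -5.2 on the other 6, at least 11.4-fold higher. A_30_P01019675, in the same region, was at -1.07 there and between -6.59 and -5.22 elsewhere. Of the 5 probes of the region, 4 were highest on this array. The nearest gene, 109 kb away, was Cfhr2, a complement factor H-related gene. Its probe stood at 3.55 on this array and between -0.91 and 0.01 on the other 6.

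In GFP-negative cells, A_30_P01032506 was detected at both stages. It lies in a region at chr12:32781477-32808567, and its levels were -6.41 and 1.21 in E8.5 GFP-positive and E8.5 GFP-negative cells, -6.17, -6.01 and -2.40 in gated, ungated and GFP-negative E9.5 cells, and -6.50 and -6.87 at E11.5. Both other probes of the locus were also highest on the same 2 arrays, at 2.54 and -1.13 for the nearer one. The erythroid markers were high on these 2 arrays as well, at medians of 7.40 and 5.82. All 6 were well above background on both, but also in ungated E9.5 cells, where their median was -1.27 and the probe was not detected. The part of red blood cells in this signal was not tested. The nearest gene probe, for Pik3cg at 79.2 kb, was well above background only in ungated E9.5 cells.

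For several probes with large gaps, few probes of the same locus shared the signal. A_30_P01028809 in the region chr2:167388900-167402475, 31.5 kb from the probe of the transcription factor gene Snai1, was at -0.15 in E8.5 GFP-negative cells and between -6.96 and -4.94 on the other arrays. Its gap of 3.99 was the largest of all. Of its 7 measured locus probes that did not overlap it, 2 were more than 1 higher on that array than on average elsewhere, the most by 1.51, and an overlapping probe of the opposite strand was higher by 1.46.

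A_30_P01025001 at chr13:99465269-99472596 was at -0.40 on the same array and between -7.07 and -5.44 elsewhere. The probe that directly follows it on the same strand was not well above background there, at -4.07, and the overlapping probe of the opposite strand was not either, at -3.83. A_30_P01024019 was at -0.66 in E8.5 GFP-positive cells and between -6.59 and -4.42 elsewhere, and none of its 21 measured locus probes was more than 1 higher on that array. The same held for all 16 of A_30_P01018643, which was at -0.71 in E9.5 GFP-negative cells. The probes that directly adjoin it on either side were at -3.78 and -4.89 there. By contrast, A_30_P01018173, at -1.35 in E9.5 gated cells alone, had 4 of 7 measured locus probes more than 1 higher on that array, the most by 2.76.

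In gated E11.5 cells alone, the largest gaps were 1.57, 1.52 and 1.39. A_30_P01021156 at chr2:157361470-157379813 was at -1.85 there and between -6.48 and -3.42 elsewhere, and 1 of its 18 measured locus probes was more than 1 higher on that array, by 2.66. A_30_P01023174 at chr13:34027900-34052050, 14.8 kb from the probe of the quinone reductase gene Nqo2, was at -2.07 there and between -6.57 and -4.75 elsewhere. Both other probes of its locus were higher there too, by 1.02 and 1.38, though detected on 7 and 6 arrays. In ungated E9.5 cells alone the largest gap was 1.77, for A_30_P01032471 at chr6:134875724-134931975, which was at -1.69 there and between -6.50 and -3.97 elsewhere. None of its 10 measured locus probes was more than 1 higher there.

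No probe on exactly 3 arrays had a gap above 2, while the largest gap was 3.99 on 1 array and 3.54 on 2. Within single populations the largest gap could be lower, as the 1.57 in gated E11.5 cells alone. The gap starts from the lowest detecting array, which weighs against probes on more arrays. A_30_P01024125 at chr17:87674225-87682154 had a gap of 1.72 and was detected in GFP-negative cells at -2.42 at E8.5 and -2.22 at E9.5 and in ungated E11.5 cells at -2.05. A_30_P01028237 at chr3:30052149-30052393, 83.1 kb from the probe of the zinc finger gene Mecom, was detected at -1.90 and -0.74 in gated and ungated E9.5 cells and at 0.03 in ungated E11.5 cells, against -4.23 or lower elsewhere. Of its 17 measured locus probes, 1 was more than 1 higher on these arrays.

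Among the 47 probes named by rank, 45 had a measured probe of the same locus that did not overlap them, and for 31 at least 1 such probe, others of the 3106 included, was more than 1 higher on the detecting arrays. Several of these share a locus. By the same count this was so for 846 of 3003 probes (28.2%), and for 38 of 85 (44.7%) with a gap above 1. Over all 3106, 3042 had a lincRNA probe in the locus that did not overlap them, and 2511 had one that was well above background on all 7 arrays. Of the same-strand locus probes that did not overlap, 13.1% were detected on no array, 24.4% on 1 to 3, 25.9% on 4 to 6 and 36.7% on all 7, against 11.1%, 19.9%, 23.8% and 45.2% of all lincRNA probes. Locus probes outside the 3106 were then compared between the arrays with and without the probe. On the same strand, the difference was above 1 for 14.1% of 71 locus probes where the gap was above 2. Those 71 belonged to only 21 of the 3106. Where the gap was above 1 to 2 the share was 15.5% of 213, and above 0 to 1 it was 11.1% of 1565. Where the gap was 0 or less it was 5.47% of 9002. On the opposite strand the shares were 4.41% of 68, 4.81% of 187, 8.95% of 1453 and 4.74% of 8024. The median differences on the same strand were -0.17, 0.13, 0.17 and 0.11. For probes on a single array, same-strand locus probes, others of the 3106 included, were also counted by array. In ungated E9.5 cells 76.0% were detected where the probe was and 76.1% where it was not. In E8.5 GFP-negative cells these were 29.3% and 35.0%. On each remaining array the first share was higher, as in ungated E11.5 cells (70.7% and 61.8%).

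Regions with several of the probes were not regions of strong signal. The region with the most, at chr19:23068397-23190256 on the reverse strand, had 7 of its 10 probes among the 3106, with highest levels between -4.27 and -2.89. These 7 were spread over 5 arrays, 5 of them detected in ungated E11.5 cells. Both strands of chr3:84609788-84618062 followed with 6 of 10 probes each, and regions at chr13:83867711-83878140 and chr14:105987405-106063477 with 5 of 10 each. No gap in these 5 regions was above 0.66.

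The nearest protein-coding gene did not as a rule follow the lincRNA probe. For each of 3089 probes with a position, the level of the nearest gene probe was averaged over the arrays that detected the lincRNA probe and over those that did not. The median difference was 0.04 for 566 pairs within 10 kb (0.0148 after quantile normalization), 0.05 for 1844 pairs at 10 to 100 kb and 0.05 for 679 pairs beyond 100 kb. The difference of the mean over all protein-coding genes had a median of -0.01, 0.05 and 0.04 for these sets of probes. The pairs within 10 kb held 283 genes, so genes recur. Among these pairs the gene was higher on the detecting arrays in 55.5%, higher by more than 1 in 4.95% and lower by more than 1 in 1.94%. Of the 88 probes with a gap above 1, 85 had a nearest gene, with 78 genes among them. The gene was higher by more than 1 for 11.8% of these probes and lower by more than 1 for 3.53%. For probes with a gap of 1 or less the shares were 5.63% and 2.83%, and for lincRNA probes on 4 to 6 arrays 8.56% and 3.75%.

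**Figure D4:**
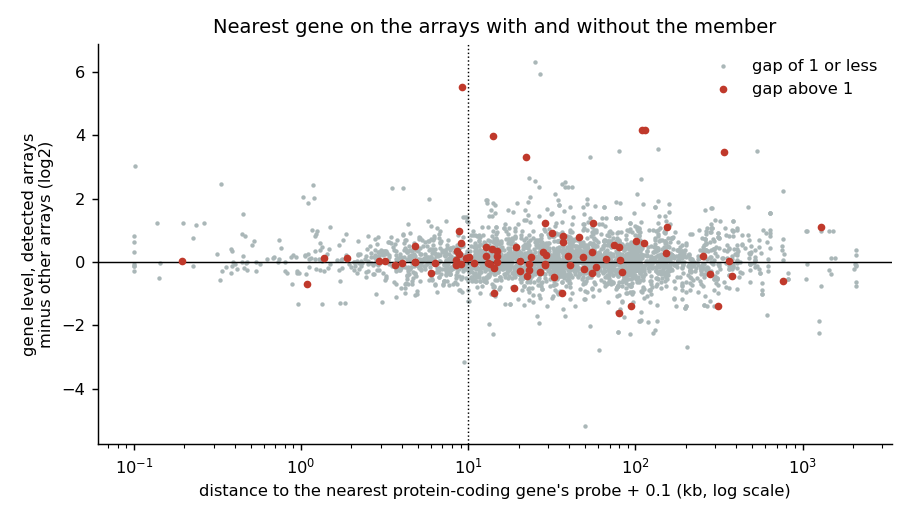
Difference in level of the nearest protein-coding gene between the arrays that detected a lincRNA probe and those that did not (vertical axis, log2) against the distance to that gene's probe (horizontal axis, kb, log scale with 0.1 added), for 3089 probes. Red points are probes with a gap above 1, and the dotted line is at 10 kb; the point for Six2 lies at 5.50 and 9.02 kb.

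Larger differences of the gene occurred at a few places, which were chosen here after their values were seen. The gene was higher by more than 2 for 32 probes at 21 genes, and lower by more than 2 for 12. For 20 of the 32 the gap was 0 or less. The highest was 6.30, for Sox2, a transcription factor of neural progenitors. A_30_P01026503 lies 25 kb from the Sox2 probe and was detected only in E9.5 GFP-negative cells, at -2.90, where Sox2 stood at 2.65 against -0.07 or lower elsewhere. A_30_P01022720, 25.1 kb from the Sox2 probe, was detected in GFP-negative E9.5 cells at -2.85 and in ungated ones at -3.06. In ungated E9.5 cells the Sox2 probe was not well above background, at -4.71. A_30_P01022572, 13.9 kb from the probe of the elongation factor gene Ell2, was detected in GFP-negative cells at 0.23 at E8.5 and -2.82 at E9.5. Ell2 was at 2.12 and -0.97 on these 2 arrays and between -3.93 and -2.55 on the others. A_30_P01024350, in the Foxf1 locus, was detected only in E8.5 GFP-positive cells, at -1.48. In the other direction, A_30_P01026475, 60.1 kb from the Ezr probe, was detected only in ungated E11.5 cells, at -3.11. Ezr stood at -2.80 there and between -0.27 and 0.20 elsewhere. The lowest difference of all was -5.17.

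The base composition of a probe moved with the number of arrays that detected it. The mean share of G and C bases was 39.7% ± 6.1 (SD, n = 1810 probes) for lincRNA probes detected on no array (chromosome X included), 41.5% ± 5.8 (n = 3106) for those described here, 43.9% ± 6.2 (n = 3862) for those on 4 to 6 arrays and 46.5% ± 8.6 (n = 7340) for those on all 7. The 88 probes with a gap above 1 had 39.2% ± 5.9. A probe held 0.65 CG dinucleotides on average, against 1.03 for lincRNA probes on all 7 arrays, and 56.4% of the probes held none. Hybridisation depends on base composition, and its part in the calls was not tested. The median distance to the nearest protein-coding gene's probe was 38.4 kb, against 26.3 kb for lincRNA probes on all 7 arrays and 46.3 kb for those on none. The share of lincRNA probes on each autosome that were among the 3106 ran from 15.3% on chromosome 11 to 23.9% on chromosome 9.

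**Figure D5:**
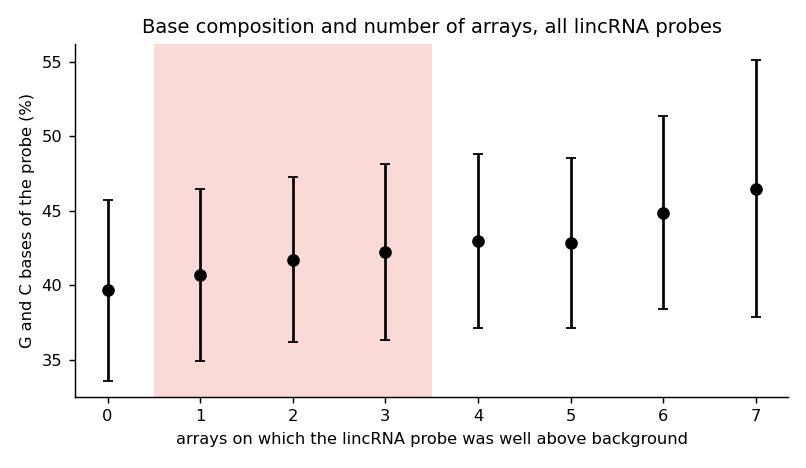
Mean share of G and C bases of the lincRNA probes (vertical axis, %) by the number of arrays on which they were well above background (horizontal axis), chromosome X included. Bars are SDs over probes, and the shaded band marks 1 to 3 arrays; the means rise from 39.7% at 0 arrays to 46.5% at 7.

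Differences of at least 4-fold between populations were counted for 8 pairs, over probes detected in at least 1 population of the pair. A population that did not detect the probe was set to the floor of its array or to its own level if higher. The same calls chose the probes, so the counts are descriptions. At E8.5, 5 of 504 measured probes were higher in GFP-positive than in GFP-negative cells and 36 were lower, beside 0.84% and 1.86% of all measured spots. At E9.5, 44 of 2513 were higher in gated than in ungated cells and 11 lower, beside 0.845% and 0.825%, and 120 and 14 after quantile normalization. Against E9.5 GFP-negative cells, 33 of 1159 were higher in gated cells and 18 lower, beside 1.18% and 1.45%. With no scaling between arrays these were 23 and 29. In ungated against GFP-negative E9.5 cells, 17 of 2532 were higher and 39 lower, beside 0.677% and 1.12%. They were 15 and 124 after quantile normalization and 9 and 52 with no scaling.

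At E11.5, 43 of 1407 measured probes were higher in gated than in ungated cells and 53 lower, beside 2.06% and 2.61% of all measured spots, and 35 and 70 with no scaling. In gated cells of E11.5 against those of E9.5, 26 of 1309 were higher and 50 lower, beside 1.2% and 2.41%, and 31 and 34 after quantile normalization. For ungated cells, 42 of 2575 were higher at E11.5 than at E9.5 and 73 lower, beside 1.54% and 2.89%. The split turned with the scaling, to 141 and 17 after quantile normalization and to 52 and 40 with no scaling. The median of all measured spots lay at -0.38 in that comparison, at 0.01 after quantile normalization and at -0.21 with no scaling. It lay at 0.17, 0.13 and -0.11 in the E11.5 gate, the ungated against the GFP-negative E9.5 cells, and the E9.5 gate. Gated cells of E9.5 against GFP-positive cells of E8.5 had 50 of 1004 probes higher and 10 lower, beside 2.02% and 1.06%, and 31 and 17 after quantile normalization. The comparisons share arrays. Those of the E8.5 populations, of the E11.5 populations, of ungated cells across stages, and of gated against GFP-negative E9.5 cells were each within a slide, and the other 4 were between slides.

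In both gate comparisons, 11 of 1020 probes measured in each differed by at least 4-fold, 6 in the same direction and 5 in opposite directions. Over all 45405 spots measured in each, 0.414% did so in the same direction and 0.121% in opposite directions. The rule for the probes used these arrays, so nothing is read from the counts. The probe near Six2 was higher in gated cells at both stages, with the values given above. The same direction at both stages was seen for A_30_P01020880, A_30_P01019213 and A_30_P01022233, which were higher in gated cells by at least 2.78, 2.24 and 2.03 at E9.5 and by at least 3.44, 3.04 and 2.92 at E11.5. Another 2 were lower in gated cells at both stages.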

How the data were processed

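The deposited values are the intensity of each spot of 7 single-colour (Cy3) Agilent arrays, as deposited by the authors. The submitters' processing notes name Feature Extraction 10.7.3.1. Per the labels, 10 ng of total RNA was amplified as cDNA and labelled with a genomic DNA labelling kit. The deposited value table held the same intensity for all 59305 spots of each array, with no scaling. Its column medians ran from 35.3 to 58.1.

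Levels are log2 intensity minus the log2 of the array's 75th percentile over non-control spots. Loci are overlapping lincRNA regions of either strand. Genes were named by accession or symbol through a RefSeq table, which matched 34022 of 43054 other spots, with 31100 protein-coding ones placed by the array's coordinates. Levels on different arrays rest on 1 spot each. The rule for the 47 named probes took, per array, the 3 single-array probes with the largest gap and the probe with the highest level, then the 6 with the largest gap on 2 and on 3 arrays, probes within 10 kb of a gene on the fixed lists (at most 15), and the 5 regions with most probes. Other probes named were chosen after their values were seen. The 4 probes with an outlier flag were passed over in naming. Probes named by the rule on chromosome 18 and at 1 other locus are not reported here, and other named ones are given in counts only. The probes and gene lists were chosen with earlier results of these data known. Alternatives were the detection call, the floor, the fold, the scaling and the background correction (limma 3.58.1, normexp, offset 50). Python 3.11.15, numpy 2.4.6 and pandas 2.3.3 were used. The steps were tested on simulated data with a common floor for all arrays, little noise and planted levels far above the floor. That test does not cover signals near the floor, where most of the probes lie.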

Additional observations from a re-analysis of the deposited data

Results flagged for a closer look

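For 5 probes the gated minus ungated difference was past 4-fold at both E9.5 and E11.5 with opposite signs, out of 1020 measured in both comparisons (0.49%). Over all non-control spots it was 55 of 45405 (0.121%), and the rule that chose the probes used these arrays. The difference between the stages was not tested, since each population had 1 array, and the E9.5 arrays lay on different slides. A_30_P01032765, on chromosome 2, differed by -2.06 at E9.5 and 2.08 at E11.5. A_30_P01021112 and A_30_P01027014, which overlap on chromosome 8 and are 382 kb from the probe of Tenm3, differed by 3.44 and 2.28 at E9.5 and by -3.19 and -2.14 at E11.5. A_30_P01030621, on chromosome 9, differed by 2.10 at E9.5 and -2.55 at E11.5. A_30_P01019334, next to the probe of the gene named 1110002E22Rik on chromosome 3, differed by 2.63 at E9.5 and -2.29 at E11.5. Levels of the gene's probe were -0.70 and -3.51 in gated and ungated E9.5 cells and -1.80 and 0.50 at E11.5, so it changed side as well. Where a population did not detect a probe, its side is the floor of its array and the difference is a bound.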

How the results depend on the processing

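No paired analysis was possible because each population had 1 array. Of 76 alternative values for 19 results, 26 stayed within 1.5 times the main value and 50 did not. The results are counts without a direction, other than the nearest-gene median, which stayed above 0. The higher and lower calls of a comparison did turn with the scaling, as given in the report, and also with the fold and the floor. In gated against ungated E9.5 cells, 168 were higher and 227 lower from 2-fold, and 93 and 488 with no floor set. In ungated against GFP-negative E9.5 cells these were 346 and 169, and 628 and 100. The comparison of the E8.5 populations kept more lower than higher probes, at 18 and 90 and at 62 and 68. The number of probes on 1 to 3 arrays was 1112 with the software's call of positive and significant signal in place of well above background, and lay between 2282 and 3239 in the other 6 settings, at 3050 without the array of ungated E9.5 cells and at 3133 without that of E8.5 GFP-negative cells. With that weaker call, the 3106 probes were detected 2507, 1363, 2623, 3031, 2554, 2680 and 2621 times on the arrays from E8.5 GFP-positive to ungated E11.5 cells, and with 1 floor 105, 95, 262, 623, 262, 147 and 213 times. In the order of the 8 comparisons in the report, counts past 4-fold became 108, 395, 254, 515, 407, 318, 1205 and 275 from 2-fold, and 130, 581, 259, 728, 386, 368, 975 and 340 with no floor set. With normexp background correction they were 8, 2, 4, 8, 8, 3, 5 and 2, since its offset of 50 lies above most of these signals. With both populations required to detect the probe they were 1, 7, 6, 7, 12, 6, 16 and 0, by construction fewer. Quantile normalization gave 134 for gated against ungated E9.5 cells and 139 for ungated against GFP-negative E9.5 cells; the cause was not tested. The median difference of the nearest gene within 10 kb was 0.0148 after quantile normalization and lay between 0.0398 and 0.0563 in the other 3 settings. In settings added after seeing the data, the number of probes with a gap of 0 or less was 460 with own levels in place of the floor and 860 without the array of E8.5 GFP-negative cells. Signals near background limit the precision for most of the probes.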
